A study of Homo sapiens with 12 samples.

Results

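The bromodomain inhibitor CPI203 was added to lenalidomide plus dexamethasone, and transcript levels were compared between cells that received all 3 drugs and cells that received lenalidomide plus dexamethasone only. The members are the 6 arrays with these treatment labels, of 12 arrays in the series, with 1 array of each kind from each of the human multiple myeloma lines ARP1, JJN3 and RPMI-8226. The Combo arrays had CPI203 at 0.01 µM, lenalidomide at 5 µM and dexamethasone at 0.05 µM, and the LenDex arrays had the same lenalidomide and dexamethasone without CPI203. The other 6 arrays were from cells with CPI203 alone (CPI203 arrays) and from cells with the treatment label control (Control arrays) of the same lines. They entered the estimate of the spread and are given as levels beside the 6. Cells were at 500000 per ml and were treated for 6 h, a time that the titles of the CPI203 samples leave out and the treatment protocol gives, and 150 ng of RNA went into each labelling. Lenalidomide and dexamethasone were always given together. The study's title asks whether the inhibitor improves lenalidomide activity through Ikaros and MYC.

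BET proteins read acetylated lysines on histones, and BET inhibitors displace them from chromatin. MYC is the best known gene lowered by such inhibitors in myeloma. Lenalidomide turns the ubiquitin ligase substrate receptor cereblon towards Ikaros (IKZF1) and Aiolos (IKZF3), which plasma cells use to keep up IRF4 and MYC, and acts on the proteins rather than on their mRNA. Dexamethasone activates the glucocorticoid receptor, which induces a core of target genes in lymphoid cells.

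The labels call all 3 lines myeloma, a plasma cell malignancy, but the JJN3 and RPMI-8226 arrays had only part of the plasma cell markers and also had B cell markers. SDC1 (syndecan-1), the defining plasma cell antigen, had log2 levels of 11.78, 5.36 and 5.18 on the Combo arrays (ARP1, JJN3 and RPMI-8226 in this order here and below), against 11.86, 5.15 and 5.23 on the LenDex arrays. PRDM1 (BLIMP1), the plasma cell master regulator, had 10.96, 5.21 and 5.09 with Combo, against 11.28, 5.70 and 5.58 with LenDex. Some other plasma cell genes were well above the floor in every line. XBP1, which drives the secretory programme, had 12.76, 10.35 and 10.27 with Combo, against 12.73, 10.64 and 10.66 with LenDex. MZB1, an immunoglobulin assembly factor, had 10.46 and 10.38 in JJN3 and RPMI-8226 with Combo, against 10.55 and 10.14 with LenDex. Others were not, such as DERL3, with 5.18 and 4.88 in JJN3 and RPMI-8226 with Combo, against 5.19 and 5.16 with LenDex. In RPMI-8226 JCHAIN had 4.85 with Combo and 5.01 with LenDex, and CD38 had 5.60 and 5.54. The summed linear signal of 9 plasma cell markers was 30800, 3380 and 3190 on the Combo arrays, against 31900, 4170 and 4150 on the LenDex arrays, and of these markers TNFRSF17, described further on, was the one called. The B cell antigen MS4A1 (CD20) had 5.33, 11.70 and 11.48 on the Combo arrays, against 4.59, 11.63 and 11.60 on the LenDex arrays. The summed linear signal of 8 B cell markers was 457, 11100 and 8320 on the Combo arrays of ARP1, JJN3 and RPMI-8226, against 450, 11600 and 9250 on the LenDex arrays. Among them PAX5 did not set the lines apart, with 7.18, 7.13 and 7.04 with Combo, against 6.94, 7.11 and 7.27 with LenDex. Of the B cell markers the kinase gene BLK was lower with Combo than with LenDex in JJN3 and RPMI-8226 (limma adjusted p = 0.022, and 0.0523 without the JJN3 Control array). BLK had 5.37, 7.91 and 7.72 with Combo, against 4.84, 8.78 and 9.45 with LenDex. It had 5.37, 7.87 and 7.90 on the Control arrays and 4.65, 7.26 and 7.21 on the CPI203 arrays. Values near 5 are close to the floor of these arrays, so the arrays labelled JJN3 and RPMI-8226 had B cell markers and near-floor SDC1 under both treatments. Markers of T cells, monocytes and fibroblasts stayed near the floor, except CD3D in JJN3 at 7.68 with Combo and 7.46 with LenDex. Of the epithelial markers the keratin gene KRT18 had 6.90, 9.21 and 5.97 with Combo, against 6.73, 9.32 and 5.50 with LenDex. Of the erythroid markers the fetal globin gene HBG1 had 12.26, 13.25 and 8.53 with Combo, against 12.26, 13.32 and 6.91 with LenDex, and the factor gene KLF1 had 5.48, 5.61 and 4.74, against 5.48, 8.32 and 4.72. HBG1 thus differed in RPMI-8226 and KLF1 in JJN3, neither was called within JJN3 and RPMI-8226 (adjusted p = 0.43 and 0.339), and their part in the results below was not tested. Across genes the JJN3 and RPMI-8226 arrays correlated with each other at 0.963 to 0.981, and with the ARP1 arrays at 0.867 to 0.887. These 2 labels may therefore not be independent biological replicates, and nothing in the labels states separate cultures. The p-values measure only the spread between these arrays. As a sign of RNA quality, GAPDH control probe sets read -0.25 to -0.10 (3′ minus 5′, log2 scale) on the Combo arrays and -0.30 to -0.09 on the LenDex arrays. Actin control probe sets read 0.29 to 0.41 on the Combo arrays and 0.31 to 0.45 on the LenDex arrays. In RPMI-8226 actin read 0.39 with Combo and 0.45 with LenDex, against 0.27 with Control and 0.23 with CPI203. The RNA is from whole cultures, so fewer cells of a type and less RNA per cell cannot be told apart.

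Over the 3 lines no gene passed the test. Of 15173 genes, limma with the line as a block called 0 at an adjusted p under 0.05 (0%), with a smallest adjusted p of 0.0569, and 2264 had an unadjusted p under 0.05 (14.9%), of which 1165 were higher (7.68%) and 1099 lower (7.24%) with Combo. Within the JJN3 and RPMI-8226 arrays, 715 genes were called (4.71%), 396 higher (2.61%) and 319 lower (2.1%), and 118 of the higher and 97 of the lower changed at least 2-fold. Cyclic loess between arrays turned this split to 353 higher and 427 lower. These calls lean on 2 arrays a group and on 3 residual degrees of freedom. Leaving out the JJN3 Control array, whose IGKC level of 9.32 lay far above the other JJN3 and RPMI-8226 arrays, brought the count to 405, of which 379 were among the 715. With ARP1 kept and JJN3 or RPMI-8226 left out, 0 genes were called. In what follows "rose" and "fell" are used only for genes called within JJN3 and RPMI-8226, and 3-line values are descriptions. Levels are log2 values, differences are log2 differences of Combo minus LenDex with standard errors from limma, and RMA makes both relative to the bulk of transcripts.

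Replication-dependent histone genes held the 2 smallest p over the 3 lines, and 9 of 56 rose within JJN3 and RPMI-8226. These genes are normally expressed in S phase, as mRNAs that end in a stem-loop in place of a poly(A) tail, and several of them are standard markers of BET inhibition. How far the array labelling picked up transcripts without a poly(A) tail was not tested, so the levels may cover only part of the histone mRNA. H3C4, which encodes histone H3.1, had the smallest p over the 3 lines, and the H2B gene H2BC5 the next. H2BC21 (H2B) and H2AC6 (H2A) were also higher in every line. Their promoter windows are shown because these genes were higher together. Each window runs from 250 bases before to 50 after a RefSeq transcript start on GRCh38.p14, in the 5′ to 3′ direction of the gene. Capitals mark CCAAT and TATAAA on either strand, the second strand reading ATTGG and TTTATA. The windows are chr6:26197237-26197536 (minus strand) for H3C4, chr6:26157871-26158170 (plus strand) for H2BC5, chr1:149886633-149886932 (minus strand) for H2BC21 and chr6:26123922-26124221 (plus strand) for H2AC6.
H3C4: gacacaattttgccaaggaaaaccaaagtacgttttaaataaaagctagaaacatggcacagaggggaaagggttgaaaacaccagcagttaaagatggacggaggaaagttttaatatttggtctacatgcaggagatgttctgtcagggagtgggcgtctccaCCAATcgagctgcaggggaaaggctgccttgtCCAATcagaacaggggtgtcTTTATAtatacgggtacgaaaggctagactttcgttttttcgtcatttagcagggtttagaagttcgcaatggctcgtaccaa
H2BC5: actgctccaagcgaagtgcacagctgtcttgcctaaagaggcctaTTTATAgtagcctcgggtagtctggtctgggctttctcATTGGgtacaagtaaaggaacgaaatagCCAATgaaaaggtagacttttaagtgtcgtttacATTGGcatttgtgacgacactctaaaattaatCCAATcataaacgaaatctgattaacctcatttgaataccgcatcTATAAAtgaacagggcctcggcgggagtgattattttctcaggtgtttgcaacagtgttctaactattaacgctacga
H2BC21: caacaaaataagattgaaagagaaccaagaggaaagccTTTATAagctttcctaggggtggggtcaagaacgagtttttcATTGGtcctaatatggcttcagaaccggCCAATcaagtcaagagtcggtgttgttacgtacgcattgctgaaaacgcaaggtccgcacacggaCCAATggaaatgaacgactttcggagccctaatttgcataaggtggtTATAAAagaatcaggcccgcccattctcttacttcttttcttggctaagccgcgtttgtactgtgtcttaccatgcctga
H2AC6: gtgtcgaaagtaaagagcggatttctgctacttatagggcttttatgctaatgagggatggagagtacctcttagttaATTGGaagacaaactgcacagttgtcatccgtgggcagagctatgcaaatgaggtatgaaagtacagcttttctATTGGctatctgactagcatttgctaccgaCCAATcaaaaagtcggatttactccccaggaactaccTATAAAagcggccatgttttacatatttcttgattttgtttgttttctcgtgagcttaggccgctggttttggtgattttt
The H3C4 window held 2 CCAAT and 1 TATAAA matches, that of H2BC5 4 and 2, that of H2BC21 3 and 2, and that of H2AC6 3 and 1. H3C4 and H2BC5 each have 2 windows in the table, of which the lower-coordinate one is shown. CCAAT occurred in 34.6% of all 35116 promoter windows and TATAAA in 11.5%. Of the 51 histone genes of the list with a window, 46 held CCAAT and 32 held TATAAA. The 9 that rose held CCAAT in 9 cases and TATAAA in 8, and the 42 that did not pass held CCAAT in 37 and TATAAA in 24.

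H3C4 had log2 levels of 8.33, 9.28 and 7.92 on the Combo arrays, against 7.09, 7.73 and 6.01 on the LenDex arrays. All 3 Combo arrays lay above all 3 LenDex arrays. The difference was 1.57 ± 0.18 over the 3 lines (adjusted p = 0.0569), and H3C4 rose by 1.73 ± 0.16 within JJN3 and RPMI-8226 (3.33-fold, adjusted p = 0.00711). H2BC5 had 9.62, 9.15 and 8.97 with Combo, against 8.70, 8.13 and 7.31 with LenDex, again without overlap. Its difference was 1.20 ± 0.15 (adjusted p = 0.0569), and it rose 2.54-fold within JJN3 and RPMI-8226 (adjusted p = 0.0125). These genes had the smallest p, but FERMT1 and FAM78A, described further on, had the same 3-line adjusted p of 0.0569. H3C4 and H2BC5 were called under several alternative settings that the closing section names. At a mean level of 6 or more FERMT1 and FAM78A were called as well. H2BC21 had 9.05, 8.65 and 6.27 with Combo, against 7.46, 6.51 and 5.31 with LenDex. Here the line levels overlapped but each line moved the same way, by 1.59 in ARP1. H2BC21 rose by 1.55 ± 0.27 within JJN3 and RPMI-8226 (adjusted p = 0.0293), and its probe sets ranged there from 0.07 to 1.55. Without the JJN3 Control array its adjusted p was 0.0586. H2AC6 had 8.72, 8.08 and 7.37 with Combo, against 7.85, 6.34 and 5.02 with LenDex, and rose 4.13-fold within JJN3 and RPMI-8226 (adjusted p = 0.00711).

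Of 56 replication-dependent histone genes tested, 9 rose, 0 fell and 47 did not pass within JJN3 and RPMI-8226, beside 2.61% of all genes rising. The other risers were H2AC8, H2AC17, H2AC20, H2AC25 and H2BC8. Without the JJN3 Control array 7 of the 56 were called higher. These included H2BC4, while the calls of H2AC17, H2AC25 and H2BC21 were lost (limma adjusted p = 0.0535, 0.0526 and 0.0586). The median 3-line difference of the list was 0.20, beside 0.00 for all genes tested, with a range from -0.15 to 1.65. Higher levels in 3 of 3 lines were seen for 32 members, beside 19.4% of all genes, and lower levels in 3 of 3 for 2. H2AC8 had 7.36, 8.79 and 7.86 with Combo, against 6.90, 7.30 and 5.66 with LenDex. H2AC25 had 5.30, 8.43 and 8.77 with Combo, against 5.25, 7.20 and 6.35 with LenDex, so that ARP1 stayed near the array floor. H2BC8 had 5.77, 8.19 and 7.36 with Combo, against 5.73, 6.61 and 5.81 with LenDex. In these 3 genes the difference in JJN3 and RPMI-8226 was larger than that in ARP1. The coding sequences of these genes are nearly identical, so one gene's probe set may pick up another's transcript. H2BC4 lies head to head with H2AC6, and their windows share 255 bases. H2BC4 had 6.26, 6.45 and 5.03 with Combo, against 5.32, 5.50 and 4.42 with LenDex, and did not pass (adjusted p = 0.0712). It was called without the JJN3 Control array (limma adjusted p = 0.0475) and with a variance trend and robust fit (limma adjusted p = 0.0259).

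**Figure D1:**
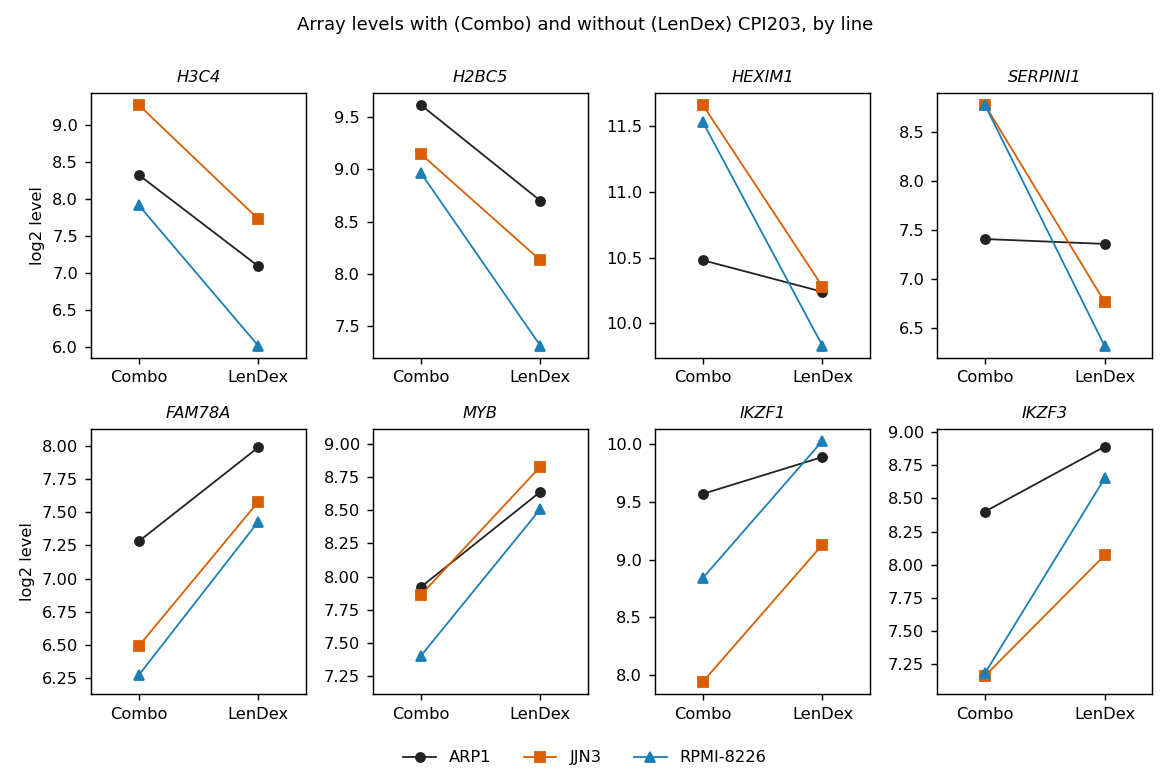
Log2 array levels on the Combo (left) and LenDex (right) arrays of each line, joined within a line, 1 array per point. H3C4 and H2BC5 are higher with Combo in each line, SERPINI1 and HEXIM1 mainly in JJN3 and RPMI-8226, and FAM78A, MYB, IKZF1 and IKZF3 are lower in each line.

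Other pharmacodynamic markers of BET inhibition were higher with Combo, with a wider gap between lines. All 9 tested members of the list of BET-induced markers were higher in 3 of 3 lines, beside 19.4% of all genes, and 5 rose within JJN3 and RPMI-8226, beside 2.61% of all genes, of which 3 are the histone genes H2BC21, H2BC5 and H2AC6. The list shares 5 genes with the histone list, and its median difference was 1.11, and over the lines it was 0.87 (ARP1), 1.19 (JJN3) and 1.50 (RPMI-8226). HEXIM1, the 7SK-bound inhibitor of P-TEFb and a blood marker for BET inhibitors, had 10.48, 11.66 and 11.53 with Combo, against 10.24, 10.28 and 9.83 with LenDex. It rose by 1.54 ± 0.14 within JJN3 and RPMI-8226 (2.91-fold, adjusted p = 0.00753), and the ARP1 pair differed by 0.24. SERPINI1 (neuroserpin) had 7.41, 8.78 and 8.78 with Combo, against 7.36, 6.77 and 6.32 with LenDex. The ARP1 pair was close to level, while SERPINI1 rose 4.72-fold within JJN3 and RPMI-8226 (adjusted p = 0.0067).

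P-TEFb is the CDK9 and cyclin T kinase that releases paused RNA polymerase II. Of 16 genes for P-TEFb, the 7SK complex, the elongation factors around them and BET proteins, 2 rose (HEXIM1 and the super elongation complex scaffold AFF4), 1 fell (HEXIM2) and 13 did not pass, beside 2.61% of all genes rising and 2.1% falling. Without the JJN3 Control array 1 of these 3 calls, that of HEXIM1, was left. The paralogues HEXIM1 and HEXIM2 moved apart. HEXIM2 had 7.17, 7.01 and 7.09 with Combo, against 7.42, 7.94 and 7.92 with LenDex, and fell by 0.88 on the log2 scale within JJN3 and RPMI-8226 (adjusted p = 0.0307, and 0.0627 without the JJN3 Control array). CDK9 had 8.56, 8.43 and 8.70 with Combo, against 8.24, 8.15 and 8.17 with LenDex. The Combo arrays all lay higher, but the difference of 0.41 ± 0.14 within JJN3 and RPMI-8226 did not pass (adjusted p = 0.165). BRD2, a BET protein itself, differed by 0.61 ± 0.20 there (adjusted p = 0.138).

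Immediate early and AP-1 genes held the most risers of any list. These are fast-responding transcription factors, phosphatases and stress genes. Of 28 tested, 11 rose and 0 fell within JJN3 and RPMI-8226 (JUN, JUNB, JUND, EGR1, IER2, IER3, IER5, ATF3, KLF6, DUSP2 and DUSP5), beside 2.61% of all genes rising, and 7 were called higher without the JJN3 Control array. The median difference of the list was 0.45 in JJN3 and 0.56 in RPMI-8226, and 0.00 in ARP1. JUND, an AP-1 subunit, had 7.70, 10.07 and 9.82 with Combo, against 7.30, 8.37 and 7.35 with LenDex, and rose 4.24-fold within JJN3 and RPMI-8226 (adjusted p = 0.00845). ATF3, a stress-induced AP-1 partner, had 6.33, 9.41 and 9.84 with Combo, against 5.34, 7.91 and 8.25 with LenDex, and rose by 1.54 ± 0.11 (adjusted p = 0.0067). Its probe sets ranged from -0.26 to 1.73. EGR1, a zinc finger factor of the serum response, was higher by 1.12 in ARP1 as well, with 8.05, 9.32 and 8.37 with Combo, against 6.93, 8.36 and 7.71 with LenDex. IER3 had 5.16, 11.07 and 10.91 with Combo, against 4.64, 10.22 and 9.89 with LenDex, and rose 1.92-fold within JJN3 and RPMI-8226 (adjusted p = 0.0166).

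The largest rise within JJN3 and RPMI-8226 was that of SERTAD1, a CDK4-binding transcriptional co-factor, chosen here after its value was seen. SERTAD1 had 8.19, 9.85 and 9.22 with Combo, against 7.80, 7.68 and 6.09 with LenDex, and rose 6.26-fold within JJN3 and RPMI-8226 (adjusted p = 0.00845). The Combo arrays all lay above the LenDex arrays. MT1X, a metallothionein that binds zinc and copper, had 9.66, 11.23 and 11.83 with Combo, against 8.89, 9.25 and 9.44 with LenDex, and rose 4.55-fold (adjusted p = 0.0067). The zinc exporter SLC30A1, which like metallothioneins is driven by the metal-sensing factor MTF1, had 9.90, 10.66 and 10.40 with Combo, against 9.99, 9.65 and 8.99 with LenDex, and rose 2.32-fold (adjusted p = 0.0107). The other 9 of 11 metallothionein and zinc genes tested did not pass, beside 2.61% of all genes rising. The MT1X window, chr16:56682220-56682519 on the plus strand of GRCh38.p14 (RefSeq), is shown for the core of the metal response element, TGCNCNC, in capitals on either strand.
MT1X: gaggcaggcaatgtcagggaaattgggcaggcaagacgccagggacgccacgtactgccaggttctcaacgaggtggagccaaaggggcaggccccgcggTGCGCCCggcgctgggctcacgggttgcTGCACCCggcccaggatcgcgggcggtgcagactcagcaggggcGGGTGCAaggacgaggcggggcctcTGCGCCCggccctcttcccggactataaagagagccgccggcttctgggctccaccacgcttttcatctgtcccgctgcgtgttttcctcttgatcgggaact
It held 4 matches, and 55.9% of all promoter windows held at least 1.

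MYC was lower with Combo in each line but did not pass. MYC had 11.64, 11.33 and 10.70 with Combo, against 11.98, 11.62 and 11.38 with LenDex. The groups overlapped between lines, and the difference was -0.44 ± 0.15 over the 3 lines (adjusted p = 0.232) and -0.49 within JJN3 and RPMI-8226, with a 95% interval from -0.92 to -0.06 that is not adjusted for the number of genes (adjusted p = 0.191). Of 14 genes of the MYC and MAX network, MXD1 and MXD3 rose, 0 fell and 12 did not pass, beside 2.61% of all genes rising, and the median 3-line difference was 0.10. MXD1, which competes with MYC for the dimer partner MAX, had 7.02, 7.37 and 6.34 with Combo, against 6.82, 6.08 and 5.09 with LenDex, and rose 2.41-fold within JJN3 and RPMI-8226 (adjusted p = 0.00711). MXD3, of the same family, rose by 1.06 ± 0.21 there (adjusted p = 0.0396, and 0.0709 without the JJN3 Control array).

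Of 57 genes known as MYC targets, 5 fell and 0 rose within JJN3 and RPMI-8226, beside 2.1% of all genes falling, and 3 were called lower without the JJN3 Control array. The median 3-line difference was -0.19 with a range from -0.70 to 0.22, and 37 members were lower in 3 of 3 lines, beside 18.3% of all genes. The genes that fell were NOP16, BYSL and DKC1, which build ribosomal subunits, the RNA polymerase I subunit gene POLR1B and the folate carrier SLC19A1. POLR1B had 8.90, 8.63 and 8.63 with Combo, against 9.32, 9.27 and 9.42 with LenDex. BYSL had 9.25, 8.91 and 8.19 with Combo, against 9.74, 9.55 and 9.15 with LenDex. Both were lower in each line, and they fell to 0.608 and 0.577 of the LenDex level within JJN3 and RPMI-8226 (adjusted p = 0.022 and 0.0288). Of 44 ribosomal protein genes 0 were called, with a median difference of 0.00 over the 3 lines.

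Of the 19 markers reported to fall under BET inhibition that were tested, 3 fell and 1 rose, beside 2.1% of all genes falling and 2.61% rising. MYB, a transcription factor of immature blood cells, had 7.92, 7.86 and 7.40 with Combo, against 8.64, 8.83 and 8.51 with LenDex, with no overlap between the groups. MYB fell by 1.04 on the log2 scale within JJN3 and RPMI-8226 (adjusted p = 0.0281) and differed by -0.94 ± 0.17 over the 3 lines (adjusted p = 0.122). E2F2, which drives entry into S phase, fell by 0.84 within JJN3 and RPMI-8226 (adjusted p = 0.0189). IRF4 is on this list but went the other way. IRF4 had 11.92, 12.98 and 13.31 with Combo, against 11.83, 12.38 and 12.76 with LenDex, and rose 1.49-fold within JJN3 and RPMI-8226 (adjusted p = 0.0491, and 0.0655 without the JJN3 Control array). On the CPI203 arrays it had 12.17, 12.99 and 13.17, against 12.26, 12.50 and 12.57 on the Control arrays, so the levels were higher with the inhibitor on both backgrounds in JJN3 and RPMI-8226.

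The mRNAs of Ikaros and Aiolos, which lenalidomide targets as proteins, fell within JJN3 and RPMI-8226. Of 14 genes of the cereblon ligase and its reported neosubstrates, 5 fell (IKZF1, IKZF3, IKZF2, ZNF692 and RAB28), 0 rose and 9 did not pass, beside 2.1% of all genes falling. The 3-line differences of the 14 ranged from -0.95 to 0.35, with 8 lower and 2 higher in 3 of 3 lines. Without the JJN3 Control array 3 were called lower. IKZF1 (Ikaros) had 9.57, 7.94 and 8.84 with Combo, against 9.89, 9.13 and 10.03 with LenDex. Each line was lower with Combo, least in ARP1 at -0.32. IKZF1 fell to 0.438 of the LenDex level within JJN3 and RPMI-8226 (difference -1.19 ± 0.14, adjusted p = 0.0128). IKZF3 (Aiolos) had 8.40, 7.16 and 7.18 with Combo, against 8.89, 8.07 and 8.65 with LenDex, and fell to 0.44 of it (difference -1.18 ± 0.17, adjusted p = 0.0195). Its probe sets ranged from -1.18 to -0.19, all lower. On the CPI203 arrays IKZF1 had 9.64, 8.07 and 8.76, against 9.94, 9.80 and 10.25 on the Control arrays, so the Combo levels were about those with CPI203 alone. CRBN, the ligase's substrate receptor, had 6.77, 7.69 and 7.91 with Combo, against 7.06, 7.51 and 7.44 with LenDex, and did not pass (adjusted p = 0.227 within JJN3 and RPMI-8226). EBF1, an early B cell factor, also fell, with 4.97, 9.30 and 9.11 with Combo, against 5.33, 10.29 and 10.06 with LenDex (adjusted p = 0.0107). It and the Ikaros genes IKZF1 and IKZF3 were the 3 of 17 B cell factors that fell, beside 2.1% of all genes, and 0 rose.

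TNFRSF17 (BCMA), the antigen of several myeloma immunotherapies, gave the second largest fall among the genes called. TNFRSF17 had 11.35, 6.81 and 7.03 with Combo, against 11.54, 8.74 and 9.83 with LenDex. It fell by 2.36 ± 0.40 on the log2 scale within JJN3 and RPMI-8226, to 0.194 of the LenDex level (adjusted p = 0.0273), and this call was lost with a variance trend and robust fit (adjusted p = 0.0679). In ARP1, the line with the highest plasma cell marker signal, the pair differed by -0.19. On the Control arrays JJN3 had 6.98 and RPMI-8226 8.84, so that the Combo levels of both labels lay at or under those of Control. On the CPI203 arrays JJN3 had 5.52 and RPMI-8226 5.55, under the Combo levels. Of 12 myeloma antigens, TNFRSF17 was the only one called, a count near the 2.1% of all genes that fell. SLAMF7, the target of elotuzumab, had 8.43, 7.17 and 6.83 with Combo, against 9.06, 7.80 and 7.03 with LenDex, and did not pass (adjusted p = 0.57 within JJN3 and RPMI-8226).

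Several of the largest falls, chosen after their values were seen, concerned genes that were high on the JJN3 and RPMI-8226 LenDex arrays. Of these, CALD1 and DCDC2 were near the array floor elsewhere. CALD1, which encodes the actin-binding protein caldesmon, had 5.15, 5.06 and 5.21 with Combo, against 4.72, 7.17 and 7.81 with LenDex. The CPI203 arrays had 5.31, 5.10 and 5.05 and the Control arrays 4.95, 5.04 and 4.94. Only the JJN3 and RPMI-8226 LenDex arrays were above the floor. CALD1 fell by 2.35 ± 0.19 within JJN3 and RPMI-8226 (adjusted p = 0.0067), and since Combo is at the floor this difference understates the change. DCDC2, a doublecortin family microtubule-binding protein, had 4.89, 5.09 and 5.22 with Combo, against 4.96, 7.29 and 7.04 with LenDex, and its CPI203 and Control levels lay between 4.88 and 5.33. FRMD3 had 5.25, 5.99 and 5.64 with Combo, against 6.26, 7.46 and 8.77 with LenDex, and was lower in ARP1 too. In all 3 genes the LenDex arrays of JJN3 and RPMI-8226 stood above every Combo array. CYSLTR1, a leukotriene receptor, had 5.54, 5.64 and 6.66 with Combo, against 6.50, 7.42 and 8.49 with LenDex. EDN1, which encodes the vasoconstrictor peptide endothelin-1, had 5.09, 6.00 and 6.61 with Combo, against 4.77, 8.70 and 8.76 with LenDex, and fell to 0.185 of the LenDex level (adjusted p = 0.0067). EDN1 was the largest fall within JJN3 and RPMI-8226. The LenDex arrays serve both in these falls and in any rise over Control, so the level in each group is given and no relation between the comparisons is drawn.

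The glucocorticoid receptor targets TSC22D3, FKBP5 and CXCR4 had Combo levels close to those with LenDex and above those of Control. TSC22D3 (GILZ), which mediates much of the anti-inflammatory action of glucocorticoids, had 12.08, 13.22 and 13.11 with Combo, against 12.14, 12.71 and 12.57 with LenDex, and 7.59, 9.73 and 9.57 on the Control arrays. It rose further within JJN3 and RPMI-8226, by 0.52 ± 0.11 (adjusted p = 0.0469, and 0.0739 without the JJN3 Control array). FKBP5, a chaperone partner that dampens the receptor, had 12.78, 12.76 and 12.32 with Combo, against 12.67, 12.69 and 12.33 with LenDex. Its difference within JJN3 and RPMI-8226 was 0.03, with an unadjusted 95% interval from -0.34 to 0.41. The chemokine receptor CXCR4 had 10.79, 11.55 and 11.72 with Combo, against 10.58, 11.66 and 11.92 with LenDex, and 8.17, 8.71 and 10.01 on the Control arrays. Its interval was -0.80 to 0.48. Of 35 glucocorticoid-induced genes 6 rose (TSC22D3, TXNIP, NFKBIA, ZFP36, MT1X and DNAJB4), 2 fell (ARHGEF3 and FAR2) and 27 did not pass, beside 2.61% of all genes rising and 2.1% falling, and without the JJN3 Control array 5 were called higher and 1 lower. ZFP36, which binds AU-rich mRNAs and speeds their decay, had 11.70, 11.48 and 10.78 with Combo, against 11.40, 9.99 and 9.27 with LenDex, and rose 2.83-fold (adjusted p = 0.0067). FAR2, a fatty acyl-CoA reductase, had 8.06, 7.10 and 7.42 with Combo, against 8.83, 8.04 and 8.87 with LenDex. FAR2 fell to 0.436 of the LenDex level (adjusted p = 0.0203).

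**Figure D2:**
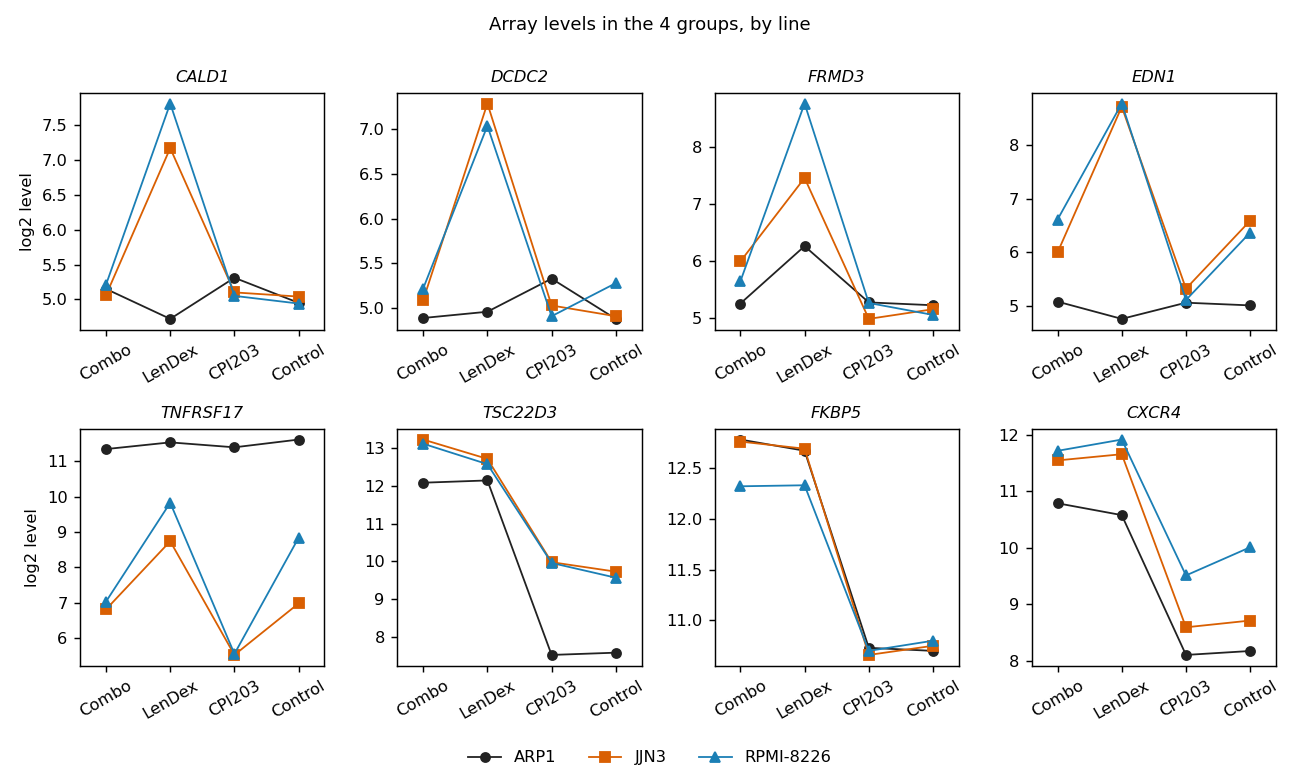
Log2 array levels in the Combo, LenDex, CPI203 and Control groups, 1 array per point, with lines joining the arrays of a cell line. CALD1, DCDC2, FRMD3 and EDN1 are high on the JJN3 and RPMI-8226 LenDex arrays only or mostly, and TSC22D3, FKBP5 and CXCR4 are high on both Combo and LenDex arrays.

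Of 17 BCL2 family genes 1 fell and 0 rose, a count near the 2.1% of all genes that fell. BCL2L1, which encodes the survival protein BCL-XL, had 6.16, 7.63 and 7.47 with Combo, against 6.41, 8.52 and 8.32 with LenDex, and fell to 0.547 of the LenDex level within JJN3 and RPMI-8226 (adjusted p = 0.0133). MCL1, on which myeloma cells depend, had 12.57, 11.76 and 11.67 with Combo, against 12.47, 11.30 and 11.13 with LenDex, and its difference of 0.50 ± 0.11 there did not pass (adjusted p = 0.0521). The death gene BCL2L11 (BIM) had 8.97, 6.34 and 5.82 with Combo, against 8.64, 6.08 and 5.48 with LenDex, and did not pass (adjusted p = 0.376). CDKN1A (p21), an inhibitor of cyclin-dependent kinases, had 7.69, 11.64 and 11.69 with Combo, against 8.09, 10.90 and 10.93 with LenDex. CDKN1A rose 1.68-fold within JJN3 and RPMI-8226 (adjusted p = 0.0343), while the ARP1 pair ran the other way. Of 42 genes of G1/S and DNA replication 5 fell (E2F2, MCM2, MCM6, GINS3 and RFC3) and 0 rose, beside 2.1% of all genes falling, and 1 was called lower without the JJN3 Control array. MCM2, a subunit of the replicative helicase, had 10.70, 9.76 and 10.40 with Combo, against 10.76, 10.56 and 10.99 with LenDex. Of 39 genes of G2 and mitosis 0 were called.

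Of 26 NF-kB genes 4 rose (RELB, NFKBIA, IER3 and MAP3K14) and 0 fell, beside 2.61% of all genes rising, and 3 were called higher without the JJN3 Control array. MAP3K14 (NIK), the kinase that starts the non-canonical pathway, had 6.62, 8.21 and 8.79 with Combo, against 6.77, 7.08 and 7.61 with LenDex, and rose 2.23-fold within JJN3 and RPMI-8226 (adjusted p = 0.00902). NFKBIA, which encodes the inhibitor IκBα, had 9.73, 13.35 and 13.20 with Combo, against 9.63, 12.71 and 12.53 with LenDex. The ARP1 pair of both genes was close to level. Of 17 genes of the NRF2 antioxidant system, regulators included, 2 rose (GCLC and BACH1) and 1 fell (KEAP1), beside 2.61% and 2.1% of all genes. The fall alone was left without the JJN3 Control array. GCLC, the rate-limiting enzyme of glutathione synthesis, had 6.59, 8.91 and 8.65 with Combo, against 6.91, 8.05 and 7.53 with LenDex. KEAP1, which targets NRF2 for degradation, had 9.69, 8.96 and 8.86 with Combo, against 9.68, 9.68 and 9.56 with LenDex, and fell to 0.611 of the LenDex level (adjusted p = 0.0206). HMOX1, a heme-degrading NRF2 target, had 8.83, 8.24 and 7.44 with Combo, against 8.93, 7.89 and 6.53 with LenDex, and did not pass (adjusted p = 0.101).

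The receptor genes IL1R1 and TLR10, chosen after their values were seen, were also among the largest falls within JJN3 and RPMI-8226. IL1R1, the receptor of interleukin-1, had 5.06, 6.33 and 6.49 with Combo, against 5.11, 7.67 and 8.93 with LenDex, and fell to 0.269 of the LenDex level (adjusted p = 0.0201). TLR10, a Toll-like receptor of B cells, had 5.30, 5.83 and 6.00 with Combo, against 5.02, 7.32 and 8.20 with LenDex, and fell to 0.277 (adjusted p = 0.0105). ARP1 was near the array floor for both genes under both treatments. Genes with the smallest p on the rising side included TOB1 and PNRC1. TOB1, an antiproliferative adaptor of mRNA deadenylation, had 8.96, 10.18 and 9.80 with Combo, against 8.79, 8.84 and 8.47 with LenDex. PNRC1, a nuclear receptor coactivator, had 10.24, 11.10 and 10.99 with Combo, against 9.95, 9.68 and 9.47 with LenDex. Each of the 2 had every Combo array above its LenDex pair, and both rose within JJN3 and RPMI-8226 (adjusted p = 0.0067 each).

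**Figure D3:**
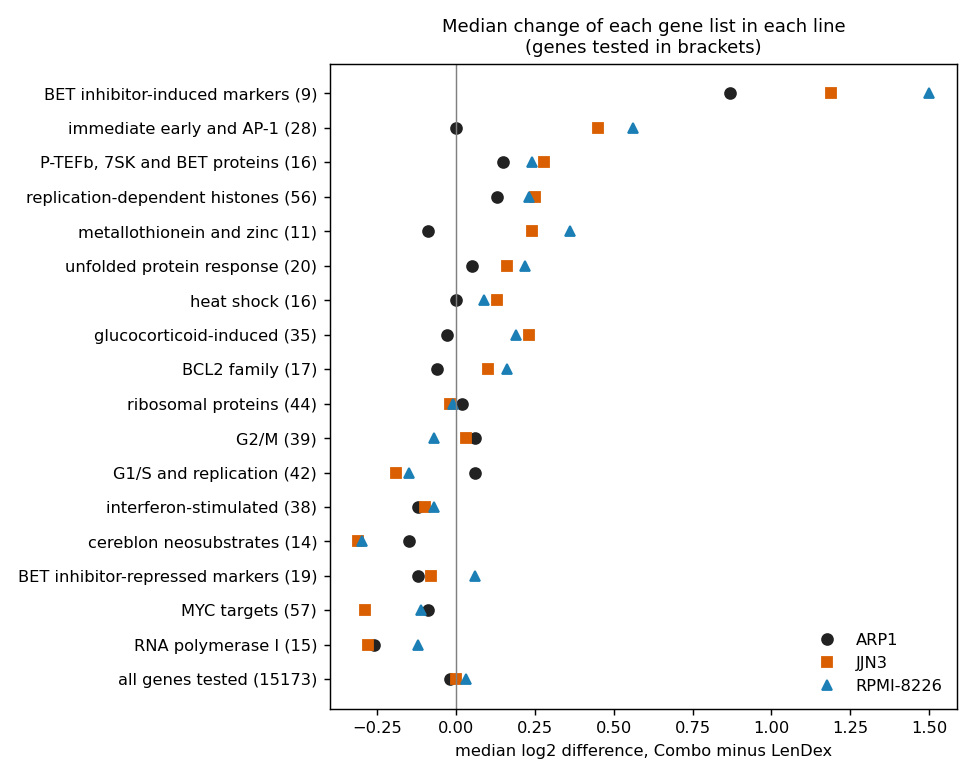
Median log2 difference, Combo minus LenDex, of each gene list in ARP1 (circle), JJN3 (square) and RPMI-8226 (triangle), with the number of genes tested in brackets. BET-induced markers have the highest medians in each line, from 0.87 to 1.50. Of the 9 markers tested, 5 are also on the replication-dependent histone list, so these 2 lists are not separate. The immediate early list lies at 0.00 in ARP1 and at 0.45 and 0.56 in the others.

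The lower genes with the smallest p over the 3 lines included FERMT1 and FAM78A. FERMT1 (kindlin-1), an integrin activator, had 7.11, 7.06 and 8.57 with Combo, against 8.26, 8.25 and 9.69 with LenDex. Each line was lower by a similar amount, with a 3-line difference of -1.15 ± 0.14 (adjusted p = 0.0569) and a fall to 0.45 of the LenDex level within JJN3 and RPMI-8226 (adjusted p = 0.0125). Its probe sets ranged from -1.15 to 0.21 there. FAM78A had 7.28, 6.49 and 6.27 with Combo, against 7.99, 7.58 and 7.43 with LenDex, with no overlap between the groups. The FAM78A difference was -0.99 ± 0.13 (adjusted p = 0.0569), and FAM78A fell to 0.459 of the LenDex level within JJN3 and RPMI-8226 (adjusted p = 0.00845). WDR35, a component of the ciliary transport machinery, had 5.62, 5.69 and 5.47 with Combo, against 6.70, 6.55 and 6.52 with LenDex. SAMD9L, an interferon-induced growth-restraining protein, had 6.56, 6.53 and 6.19 with Combo, against 7.94, 7.16 and 7.79 with LenDex. The Combo arrays of WDR35 and SAMD9L lay under all LenDex arrays, as was so for 457 of all genes (3.01%), and 573 (3.78%) lay above. SAMD9L did not pass within JJN3 and RPMI-8226 (adjusted p = 0.059). Higher genes by the same 3-line rule included NPFF, a neuropeptide precursor, with a difference of 0.72 ± 0.10 (adjusted p = 0.087), TEDC1, a tubulin complex component, with 0.74 ± 0.11 (adjusted p = 0.1), and the beta-tubulin gene TUBB2A with 0.59 ± 0.10 (adjusted p = 0.119).

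The change was smaller in ARP1 than in the other lines by the counts. With 1 array of each kind, 29 genes were at least 2-fold higher and 64 lower with Combo in ARP1 (0.613% of genes in all), 123 and 124 in JJN3 (1.63%), and 271 and 195 in RPMI-8226 (3.07%). The SD of the log2 difference over genes was 0.284, 0.342 and 0.412 in these lines, in the same order. Across genes the differences correlated at 0.58 between JJN3 and RPMI-8226, at 0.17 between ARP1 and JJN3 and at 0.15 between ARP1 and RPMI-8226, where genes are not independent replicates. Of the 396 genes that rose within JJN3 and RPMI-8226, 264 (66.7%) were also higher in ARP1, beside 47.1% of all genes, and of the 319 that fell 243 (76.2%) were also lower, beside 52.8%. These genes were chosen by their change in JJN3 and RPMI-8226, so the size of their change there is not set against that in ARP1. The difference of the changes between ARP1 and the others was tested itself, and limma called 0 genes (0%), with 1671 at an unadjusted p under 0.05 (11%) and a smallest adjusted p of 0.0848. A variance trend and robust fit called 99. CALD1 and ANKRD50, an endosome recycling protein, were among the genes at the smallest p. ANKRD50 had 7.25, 8.40 and 8.16 with Combo, against 7.41, 6.76 and 6.32 with LenDex, and rose 3.35-fold within JJN3 and RPMI-8226 (adjusted p = 0.0067). ZMYND8, a reader of modified histones, had 9.34, 8.87 and 8.84 with Combo, against 9.53, 10.44 and 10.34 with LenDex, and fell to 0.347 of the LenDex level (adjusted p = 0.0067).

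**Figure D4:**
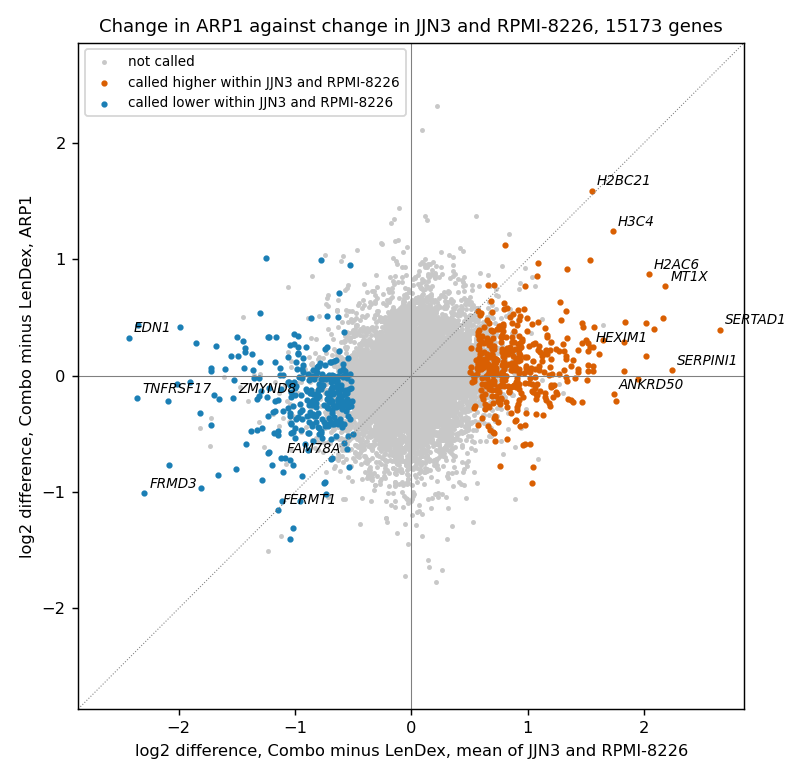
Log2 difference, Combo minus LenDex, of 15173 genes in ARP1 (y axis, 1 array each) against the mean of JJN3 and RPMI-8226 (x axis), with the 396 genes called higher and the 319 called lower within JJN3 and RPMI-8226 in colour. The coloured genes were chosen by their values on the x axis, so their spread along it is no result, and in ARP1 264 of the 396 lie above 0 and 243 of the 319 below it.

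The change by CPI203 on lenalidomide plus dexamethasone was set against that by CPI203 alone, a comparison that shares no array. Across genes the 2 log2 differences correlated at 0.60 and 0.62 in JJN3 and RPMI-8226 and at 0.19 in ARP1. The interaction, (Combo minus LenDex) minus (CPI203 minus Control), had 0 genes called by limma (0%) and 472 at an unadjusted p under 0.05 (3.11%), and 0 under each alternative run. For H3C4 it was -0.41, for HEXIM1 -0.07, for MYC 0.14, for IKZF1 0.28 and for TNFRSF17 0.01. CALD1 and FRMD3, which were high on the JJN3 and RPMI-8226 LenDex arrays, had larger values of -1.60 and -1.90, and these did not pass. ADGRG2, an adhesion G protein-coupled receptor chosen after its value was seen, had 5.11, 6.60 and 7.38 with Combo, against 4.82, 5.22 and 5.09 with LenDex, and 4.78, 4.92 and 5.15 with CPI203 alone, against 4.66, 5.07 and 4.87 in Control. ADGRG2 rose by 1.83 ± 0.23 within JJN3 and RPMI-8226 (adjusted p = 0.0135), while its interaction of 1.23 over the 3 lines did not pass.

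**Figure D5:**
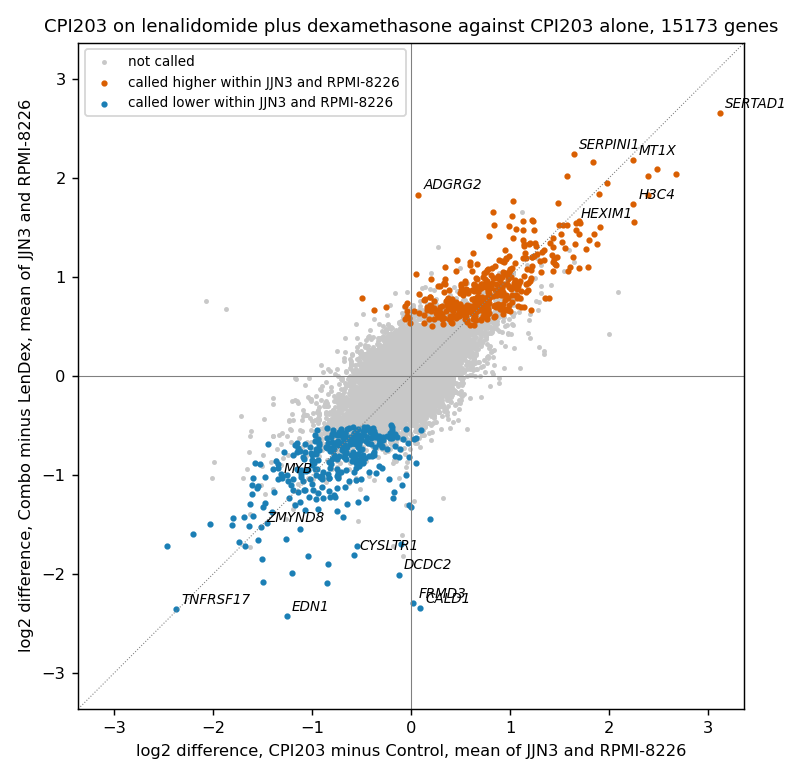
Mean log2 difference over JJN3 and RPMI-8226 of 15173 genes, Combo minus LenDex (y axis) against CPI203 minus Control (x axis), with genes called in the first in colour and the line of equality dotted. Of the genes called higher 386 of 396, and of those called lower 312 of 319, lie on the same side of 0 on both axes, beside 7564 of all 15173 genes above 0 and 7609 below 0 on the x axis, and ADGRG2, CALD1, FRMD3 and DCDC2 lie near 0 on the x axis.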

How the data were processed

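The 12 arrays were analysed. The authors deposited a log2 level for each probe set. Per the submitters' processing notes they used RMA and Affymetrix Expression Console 1.1, and the size of the values shows the log2 scale. Whether the arrays were normalised together is not given in the sources used here. Array medians lay between 5.304 and 5.375, and the number of arrays limits the precision. Of 49386 probe sets, 93 were controls, 45253 had 1 gene symbol, 1327 several and 2713 none. Each of 18239 genes was represented by its single-symbol probe set with the highest mean, and 15173 passed a filter (log2 level at or above 5 on 3 arrays or more).

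The main model in limma 3.58.1 under R 4.3.3 had group and cell line as terms over 12 arrays (6 residual degrees of freedom), two-sided, with Benjamini-Hochberg adjustment over all genes tested and a call at an adjusted p under 0.05. A second fit, with separate group terms for ARP1, gave the change within JJN3 and RPMI-8226 and its difference from ARP1. The labels pair the arrays by cell line, and within a line the deviations from group means correlated at 0.82 to 0.94. Fits were tested on simulated data with independent noise and the same change in every line. That setting does not cover labels that may not be independent or a line that responds differently.

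Members, gene lists and tests were chosen with earlier results of these data known. The lists come from general knowledge and overlap, so their counts are not separate results. Genes called in several lists included IER3, NFKBIA, MT1X, ATF3, E2F2 and SLC19A1. Named genes were those with the smallest p moving the same way in 3 lines, a panel of 18 genes, up to 4 members of each list by p, and the 10 smallest p of each other contrast; list members called within JJN3 and RPMI-8226 and the largest changes there were chosen after their values were seen. Alternatives were other filters, probe set choices, normalisations, variance models and arrays left out. Promoter windows are from RefSeq.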

Additional observations from a re-analysis of the deposited data

How the results depend on the processing

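Over the 3 lines limma called 0 genes, and 0 also without the level filter, with the 6 Combo and LenDex arrays alone, with the arrays of JJN3 and RPMI-8226 averaged per treatment, without the JJN3 Control array, and with no replicate block, that is without the pairing by line. It called 4 genes at a mean level of 6 or more (H3C4, H2BC5, FERMT1 and FAM78A), 5 with the mean of a gene's probe sets, 2 with every probe set singly, 2 with cyclic loess and 2 with quantile normalisation (H3C4 and H2BC5 in both), and 61 with a variance trend and robust fit, of which 47 were among the 715 called within JJN3 and RPMI-8226. The counts with 1 line left out ranged from 0 to 715, the highest without ARP1. Within JJN3 and RPMI-8226 the 715 became 1555 with the trend and robust fit and 405 without the JJN3 Control array, and the ARP1 difference 99 with the trend and robust fit. The interaction stayed at 0 under each alternative run. Leaving out 1 of the 2 labels leaves no residual degrees of freedom within them and was not run. Of the 102 genes followed, 2 changed sign in a 3-line alternative, both close to 0. CRBN was at -0.06 without RPMI-8226, and CXCR4 at 0.00 without JJN3, 0.05 without RPMI-8226 and 0.03 with the arrays averaged. As the main 3-line fit called 0 genes, no call could be lost there. Within JJN3 and RPMI-8226 the alternatives gave 408 values for the 102 genes. In 27 of these a call was lost, in 7 a call was gained and in 0 the sign changed. JUNB and NOP16 were among the calls lost without the JJN3 Control array (limma adjusted p = 0.0529 and 0.0531). The causes of these changes were not tested. Levels near 5 are at the array floor, so differences that end there are too small.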

Other observations

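Of 16 heat shock genes 4 rose within JJN3 and RPMI-8226 (HSPA1A, HSPA1B, DNAJB1 and BAG3) and 0 fell, beside 2.61% of all genes rising, and 3 were called higher without the JJN3 Control array. The HSP70 gene HSPA1B had log2 levels of 9.19, 11.62 and 11.36 in ARP1, JJN3 and RPMI-8226 with Combo, against 9.06, 10.68 and 10.20 with LenDex. The co-chaperone gene DNAJB1 had 9.39, 11.14 and 10.37 with Combo, against 9.46, 10.10 and 9.34 with LenDex. Both were higher in the JJN3 and RPMI-8226 pairs, and they rose 2.08-fold and 2.05-fold there (limma adjusted p = 0.0209 and 0.0143). Of 20 unfolded protein response genes 1 rose, near the 2.61% of all genes, and this was HERPUD1, which helps clear misfolded proteins from the endoplasmic reticulum. HERPUD1 had 11.60, 11.48 and 11.29 with Combo, against 11.07, 10.86 and 10.73 with LenDex, without overlap, and its adjusted p was 0.0332 in limma, or 0.0586 without the JJN3 Control array. Of 18 integrated stress response genes 2 rose, ATF3 and PPP1R15A (GADD34), and of 25 cholesterol and fatty acid genes 2, LSS and IDI1, again beside 2.61% of all genes, and the call of LSS was lost without that array (limma adjusted p = 0.0757).

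Of 38 interferon-stimulated genes 1 rose and 1 fell, which is near the 2.61% and 2.1% of all genes and no result about the list. IRF7, the master regulator of type I interferon genes, rose and EPSTI1 fell, and the median 3-line difference of the list was -0.14. IRF7 had 6.60, 8.68 and 8.82 with Combo, against 6.62, 6.46 and 7.13 with LenDex, and rose 3.87-fold within JJN3 and RPMI-8226 (limma adjusted p = 0.00845). EPSTI1 had 5.73, 5.49 and 5.80 with Combo, against 6.05, 6.85 and 8.08 with LenDex, and fell to 0.284 of the LenDex level (limma adjusted p = 0.0211). MLKL, the executioner of necroptosis, had 5.86, 5.93 and 5.70 with Combo, against 6.63, 8.34 and 7.45 with LenDex, and was lower in each line. MLKL fell to 0.237 of the LenDex level within JJN3 and RPMI-8226 (limma adjusted p = 0.0105). Of 15 MHC class II genes 1 fell, beside 2.1% of all genes, and this was the regulator RFX5, with 9.72, 8.84 and 9.15 with Combo, against 9.73, 9.63 and 9.82 with LenDex.

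Some ARP1 pairs stood apart from the others. BACH2, a B cell repressor, had 6.24, 5.40 and 4.94 with Combo, against 8.01, 5.04 and 4.88 with LenDex. HOPX, a homeodomain co-factor, had 6.24, 4.94 and 4.87 with Combo, against 7.88, 4.62 and 4.88 with LenDex. In both genes the ARP1 LenDex array was the high one. The JJN3 and RPMI-8226 LenDex arrays were near the array floor, where a fall could not be seen. HEY1, a Notch target, had 6.69, 9.91 and 9.06 with Combo, against 8.36, 9.59 and 8.85 with LenDex. The test of the ARP1 difference gave each of these 3 an adjusted p of 0.0848 in limma, and their changes were not followed in each alternative setting.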
